A study of Mus musculus with 6 samples.

Results

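The genes described here are 10 receptors, bridging molecules and adaptors of efferocytosis, the uptake of dying cells by phagocytes. They were taken by name from a table of 24562 gene symbols, by a rule that holds no measured value but was set with earlier results of these data known, and each was represented by the RefSeq transcript with the highest total count. The receptors are *Mertk*, *Axl*, *Stab1*, *Lrp1*, *Itgav* and *Itgb5*, the bridging molecules are *Gas6*, *Pros1* and *Mfge8*, and *Elmo1* encodes a signalling adaptor. All 10 passed the filter on low counts.

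Dying cells expose phosphatidylserine on their surface. Phagocytes recognise this lipid directly through receptors such as stabilin-1, or through soluble bridging molecules that attach it to a receptor: Gas6 and protein S bind the TAM tyrosine kinases Tyro3, Axl and Mertk, and Mfge8 binds the integrins that contain the αv chain. Downstream, Elmo1 and Dock1 together activate the GTPase Rac1, which drives the membrane around the corpse. In atherosclerotic plaques, macrophages that fail to clear dying cells are known to add to the necrotic core.

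RNA was sequenced from unstimulated bone marrow-derived macrophages (BMDMs) of C57Bl/6J mice, differentiated in medium with L929-conditioned medium as a source of macrophage growth factor. The study names marrow of both sexes for its in vitro work, and the labels give no sex. All mice carried *Acly* fl/fl alleles, in which loxP sites flank part of *Acly*, the enzyme that makes cytosolic acetyl-CoA from citrate. Control mice were Cre-negative littermates, and AclyM-KO mice also carried Cre under the *Lyz2* promoter (LysMcre), which is active in macrophages, monocytes and neutrophils. The comparison of 3 control with 3 AclyM-KO libraries asks which transcripts differ in macrophages that lack Acly before any stimulus. The study's legends for expression in these data give 3 technical replicates from 3 pooled mice. On that description, standard errors and p-values below measure the spread between these libraries and do not cover that between mice. In bulk RNA, fewer cells of a type and less RNA per cell cannot be told apart.

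Total counts over all transcripts were 19327459 to 23582992 in control and 19797218 to 44507233 in AclyM-KO libraries. *Acly*, counted over its whole transcript, had 229.7 ± 8.18 CPM (counts scaled to library size; SD, n = 3) in control macrophages and 96.8 ± 3.06 CPM in AclyM-KO macrophages. AclyM-KO replicate 2, the deepest library, stood apart: over 8327 genes, the median absolute deviation of its log2 differences was 0.263 and 0.257 from the other AclyM-KO libraries, which differed from each other by 0.138, and 0.115 to 0.125 between control libraries. For the 10 genes and the others named as past the threshold, calls that change without it and called values that move by over 1.5 times are given both ways. Transcripts over 7000 bp also varied between libraries, with overlap between the groups. Their median deviation from the mean log2 level over 773 genes was -0.01, 0.06 and 0.10 in the control libraries (replicates 1, 2 and 3, the order kept below). In the AclyM-KO libraries it was -0.01, 0.00 and -0.10, and this variation bears on *Lrp1*, *Stab1* and *Itgav*.

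Levels are compared between genes as RPKM, counts scaled to transcript length and library size. *Gas6* had by far the highest level, 338 ± 8.26 RPKM (SD, n = 3) in control and 370 ± 39.0 RPKM (SD, n = 3) in AclyM-KO macrophages. *Stab1* followed with 94.5 ± 3.03 RPKM in control and 95.9 ± 22.6 RPKM in AclyM-KO macrophages. *Mfge8* came next in control macrophages with 68.2 ± 2.57 RPKM, clear of *Stab1* in every library, while in AclyM-KO macrophages its 93.3 ± 6.53 RPKM fell within the range of *Stab1*. The next level down was shared by *Lrp1* and *Itgb5*, whose libraries overlapped in both groups, with 52.9 ± 11.6 and 46.8 ± 1.70 RPKM in control and 38.1 ± 5.93 and 38.2 ± 4.63 RPKM in AclyM-KO macrophages. *Mertk* was the more abundant TAM receptor, with 29.8 ± 0.338 RPKM against 9.40 ± 0.939 RPKM of *Axl* in control and 19.3 ± 3.06 against 6.35 ± 0.350 RPKM in AclyM-KO macrophages. *Pros1* lay between them with 14.6 ± 0.747 RPKM in control and 13.2 ± 0.712 RPKM in AclyM-KO macrophages. Thus the ligand *Gas6* was present far above the ligand *Pros1* in both groups. *Elmo1* had 9.12 ± 0.490 RPKM in control, overlapping *Axl*, and 10.9 ± 1.05 RPKM in AclyM-KO macrophages, where every library lay above those of *Axl*. *Itgav*, the αv chain, was the lowest in control macrophages with 7.71 ± 0.612 RPKM, and in AclyM-KO macrophages its 6.83 ± 0.637 RPKM overlapped the range of *Axl*.

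**Figure D1:**
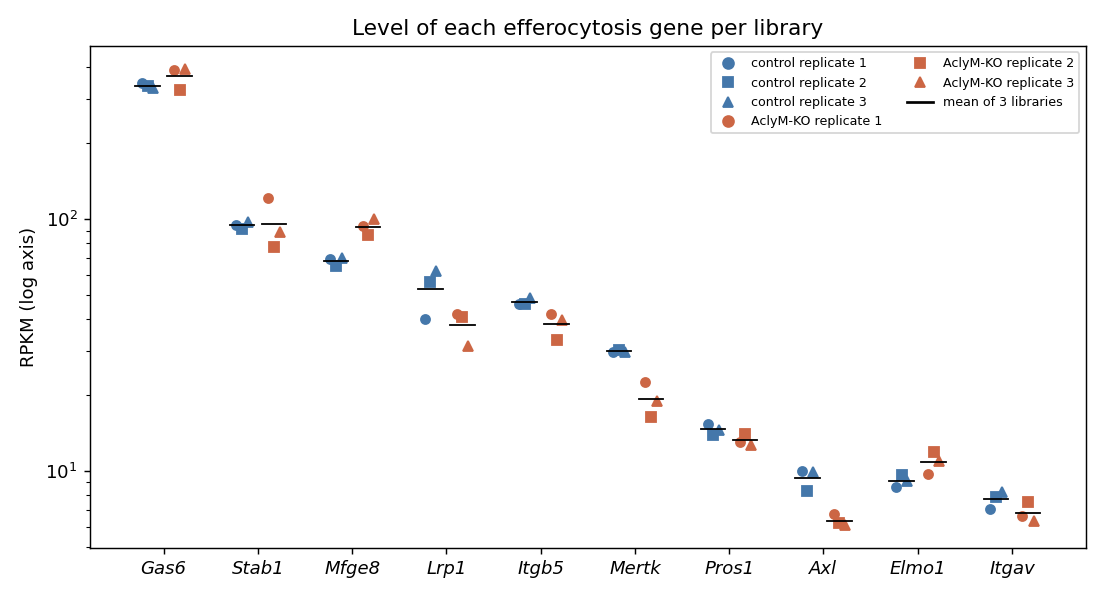
Level of each gene in RPKM on a log axis, with 1 point per library (blue for control, orange for AclyM-KO, symbols for replicates 1 to 3) and a black line at the mean of 3 libraries. *Gas6* lies above the other 9 genes in every library, and *Mertk*, *Axl*, *Itgb5*, *Mfge8* and *Elmo1* show no overlap between the groups.

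In AclyM-KO macrophages the receptors *Mertk*, *Axl*, *Lrp1* and *Itgb5* fell and the bridging molecule *Mfge8* rose. The other 5 genes (*Stab1*, *Itgav*, *Gas6*, *Pros1* and *Elmo1*) did not pass an adjusted p of 0.05 in edgeR's quasi-likelihood test. Thus 4 of 6 receptors were lower and 0 higher, and 1 of 3 bridging molecules was higher and 0 lower. Of all 11470 genes tested, 12.3% passed the threshold, 6.7% higher and 5.65% lower in AclyM-KO macrophages. Libraries of the 2 groups did not overlap in CPM for 5 of the 10 genes and for 32.8% of all tested genes. The median log2 fold change was -0.19 over the 10 genes and 0.00 over all tested genes.

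**Figure D2:**
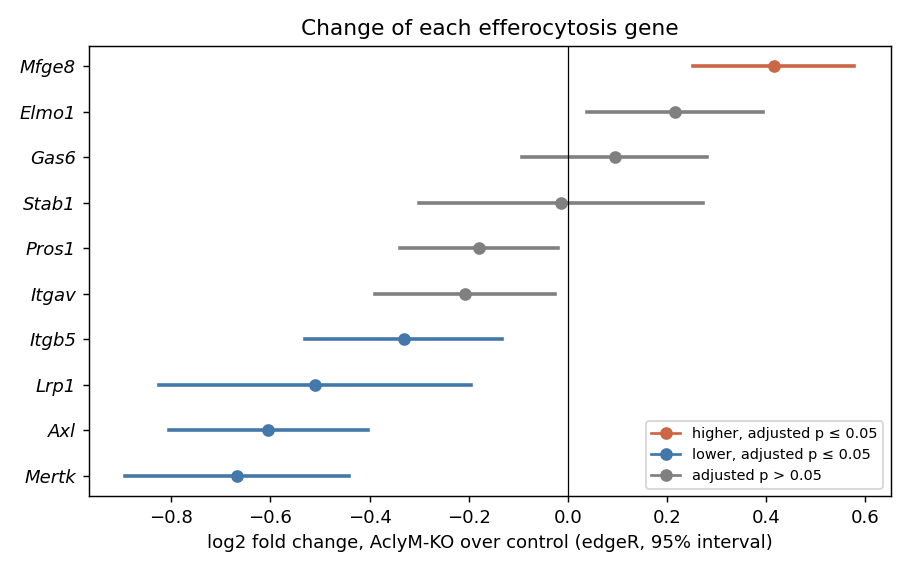
Log2 fold change of each gene in AclyM-KO over control macrophages (x axis), with bars for the 95% confidence interval of edgeR's fit and colours for genes higher, lower or not past an adjusted p of 0.05. The intervals of *Mertk*, from -0.89 to -0.44, and of *Axl*, from -0.80 to -0.40, have the upper ends furthest below 0, and that of *Mfge8*, from 0.25 to 0.58, has the lower end furthest above it.

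*Mertk* (NM_008587, chromosome 2 of mm10, 128698915 to 128803162) encodes the TAM kinase best known for clearance of apoptotic cells by resting and tolerogenic macrophages. It had 226.2, 229.1 and 221.7 CPM in the control and 167.0, 118.8 and 141.8 CPM in the AclyM-KO libraries. The control libraries were nearly equal, and all AclyM-KO libraries lay well below them, with replicate 2 the lowest. The fall was 1.58-fold, a log2 fold change of -0.67 (standard error, SE, 0.103, with edgeR adjusted p = 0.00202), and -0.55 without AclyM-KO replicate 2 (edgeR adjusted p = 4.87e-06).

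*Axl* (NM_001190974, chromosome 7, 25756500 to 25788924) encodes the TAM kinase associated with clearance in inflamed settings, which binds Gas6 most strongly. It had 69.0, 57.2 and 67.0 CPM in the control and 45.4, 40.6 and 41.3 CPM in the AclyM-KO libraries. No AclyM-KO library reached the lowest control library, and the AclyM-KO libraries were close to each other. *Axl* was 1.52-fold lower, with a log2 fold change of -0.60 (SE 0.0917, edgeR adjusted p = 0.00189). Its other RefSeq transcripts, which share most of its reads, gave -0.61 (NM_009465) and -0.62 (NM_001190975). The third TAM kinase, *Tyro3*, was near the limit of detection with 15, 5 and 11 counts in the control and 27, 57 and 26 in the AclyM-KO libraries. It rose by 1.34 on the log2 scale (SE 0.363, edgeR adjusted p = 0.0341), but was called no longer without control replicate 2 (adjusted p = 0.132), control replicate 3 (0.0949), AclyM-KO replicate 1 (0.0566) or AclyM-KO replicate 3 (0.0741). Even after this rise, *Tyro3* was at 0.295 ± 0.00948 RPKM (SD, n = 3), far below *Mertk* and *Axl*. The proteases *Adam10* and *Adam17*, known to shed TAM receptors from the cell surface, had log2 fold changes of 0.11 (edgeR adjusted p = 0.319) and -0.14 (adjusted p = 0.172).

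*Lrp1* (NM_008512, chromosome 10, 127538157 to 127621148) encodes a large endocytic receptor that takes up calreticulin-marked cells and many plasma ligands. It had 1052, 1477 and 1622 CPM in the control and 1080, 1026 and 808.1 CPM in the AclyM-KO libraries. Control replicate 1 lay among the AclyM-KO libraries, so the groups overlapped. The log2 fold change was -0.51 (SE 0.144, edgeR adjusted p = 0.0393), and the call was lost without control replicate 2 (-0.46, adjusted p = 0.142), control replicate 3 (-0.38, adjusted p = 0.175) or AclyM-KO replicate 3 (-0.40, adjusted p = 0.129). At 14888 bp, *Lrp1* was the longest of the 10 transcripts, and its highest and lowest libraries, control replicate 3 and AclyM-KO replicate 3, were also the highest and lowest for transcripts over 7000 bp as a class. With counts corrected for transcript length it had 1078, 1394 and 1439 CPM in control and 1116, 1024 and 912.5 CPM in AclyM-KO libraries, and a log2 fold change of -0.36 (edgeR adjusted p = 0.0482). The correction left the overlap of control replicate 1 with the AclyM-KO libraries in place.

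*Stab1* (NM_138672, chromosome 14, 31139017 to 31168651) encodes stabilin-1, a scavenger receptor that binds phosphatidylserine directly. It had 1334, 1290 and 1361 CPM in the control and 1671, 1045 and 1232 CPM in the AclyM-KO libraries. The control libraries were close together, whereas AclyM-KO replicate 1 lay above and replicates 2 and 3 below all of them. The log2 fold change was -0.01 with a 95% confidence interval from -0.30 to 0.27 (edgeR adjusted p = 0.960), and 0.13 without AclyM-KO replicate 2. Exons of *Stab1* share 112 bases with *Nt5dc2* on the opposite strand, which had up to 2976 counts, and the counting was run at default settings with no strand option named. *Stab2*, its low-expressed relative, fell by 0.43 on the log2 scale (33.0 ± 1.05 CPM in control and 24.7 ± 3.15 CPM in AclyM-KO macrophages; SD, n = 3; edgeR adjusted p = 0.0247), a call lost without control replicate 1 (adjusted p = 0.104), 2 (0.0717) or 3 (0.102) and with the length correction (0.0728).

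*Itgav* (NM_008402, chromosome 2, 83722303 to 83806917) and *Itgb5* (NM_001145884, chromosome 16, 33829665 to 33949338) encode the chains of the integrin αvβ5, a receptor for Mfge8 on dying cells. *Itgb5* had 266.1, 264.9 and 279.2 CPM in the control and 237.0, 182.2 and 226.0 CPM in the AclyM-KO libraries. Each AclyM-KO library lay below each control library, and AclyM-KO replicate 2 was the furthest. *Itgb5* fell by 0.33 on the log2 scale (SE 0.0912, edgeR adjusted p = 0.0356), and this call was lost without control replicate 1 (adjusted p = 0.107), 2 (0.101) or 3 (0.151) or AclyM-KO replicate 3 (0.0548). Without AclyM-KO replicate 2 the log2 fold change of *Itgb5* was -0.22 (edgeR adjusted p = 0.00521). *Itgav* had 87.6, 97.9 and 101.0 CPM in the control and 80.2, 89.6 and 77.7 CPM in the AclyM-KO libraries. Control replicate 1 and AclyM-KO replicate 2 overlapped, and the log2 fold change was -0.21 (95% confidence interval -0.39 to -0.03, edgeR adjusted p = 0.128). Without AclyM-KO replicate 2 *Itgav* passed the threshold at -0.27 (edgeR adjusted p = 0.00816), and with the length correction it was at -0.15 (adjusted p = 0.228). In contrast to *Itgb5*, *Itgb3*, whose product pairs with the same αv chain in another Mfge8 receptor, rose 1.72-fold. It had 64.9, 83.0 and 71.5 CPM in the control and 127.3, 129.0 and 120.6 CPM in the AclyM-KO libraries, with a wide gap between the groups (log2 fold change 0.78, SE 0.0895, edgeR adjusted p = 0.000309). The difference between *Itgb3* and *Itgb5* was not tested.

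*Mfge8* (NM_008594, chromosome 7, 79133768 to 79149060) encodes lactadherin, which bridges phosphatidylserine to αv integrins. It had 259.5, 244.8 and 260.3 CPM in the control and 343.2, 309.6 and 367.1 CPM in the AclyM-KO libraries. Every AclyM-KO library was above every control library, and AclyM-KO replicate 2 was the nearest to control. The rise was 1.33-fold, with a log2 fold change of 0.41 (SE 0.0743, edgeR adjusted p = 0.00455) and of 0.42 for its other transcript, NM_001045489. Leaving out AclyM-KO replicate 2 gave a larger difference, 0.48 on the log2 scale.

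*Gas6* (NM_019521, chromosome 8, 13465374 to 13494535) encodes a ligand of all TAM kinases. It had 1561, 1515 and 1468 CPM in the control and 1713, 1394 and 1746 CPM in the AclyM-KO libraries. AclyM-KO replicates 1 and 3 lay above and replicate 2 below all control libraries. The log2 fold change was 0.09 (95% confidence interval -0.09 to 0.28, edgeR adjusted p = 0.522), and without AclyM-KO replicate 2 *Gas6* passed the threshold at 0.19 (edgeR adjusted p = 0.00498). *Pros1* (NM_011173, chromosome 16, 62854307 to 62929346), which encodes protein S, the anticoagulant that also activates Mertk and Tyro3, had 89.9, 81.1 and 83.6 CPM in the control and 73.9, 78.0 and 72.7 CPM in the AclyM-KO libraries. These did not overlap, but the gap was small and closed on the RPKM scale, where AclyM-KO replicate 2 lay above control replicate 2, and the log2 fold change of -0.18 (95% confidence interval -0.34 to -0.02) missed the threshold (edgeR adjusted p = 0.137). Without AclyM-KO replicate 2, *Pros1* passed it at -0.21 (edgeR adjusted p = 0.0310).

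*Elmo1* (NM_080288, chromosome 13, 20090507 to 20608353) encodes the adaptor that links engulfment receptors to Dock proteins and Rac1. It had 83.2, 92.4 and 87.1 CPM in the control and 91.9, 108.8 and 104.1 CPM in the AclyM-KO libraries. AclyM-KO replicate 1 lay within the control range and the others above it, whereas on the RPKM scale all of them lay above, by a small gap. The log2 fold change was 0.22 (95% confidence interval 0.04 to 0.39, edgeR adjusted p = 0.108), and without AclyM-KO replicate 1 it was 0.28 (edgeR adjusted p = 0.0408). Its second transcript, NM_198093, held 57.3% to 60.4% as many counts in every library, with no separation of the groups. Exons of *Itgav*, *Elmo1* and *Gas6* share 634, 403 and 34 bases with *Gm13684*, *Gm32036* and *Tmem255b* on the opposite strand, of which *Tmem255b* was at 0 counts.

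Pairs of genes with a shared role were then compared by the difference in their log2 ratio of CPM between the groups. With 3 libraries against 3, the smallest p that an exact permutation test can give is 0.10. The ratio of *Mfge8* to *Itgav*, ligand to receptor chain, was higher in every AclyM-KO library than in any control library, by 0.62 on the log2 scale (control SD 0.131, AclyM-KO SD 0.231), with the smallest p possible (exact two-sided permutation test, adjusted p = 0.333 over 5 pairs). The ratios in the other 4 pairs overlapped between groups. *Mertk* relative to *Axl* differed by -0.08, with exact permutation p = 0.6 and adjusted p = 0.75, so a difference between the changes of the TAM receptors was not shown, and without AclyM-KO replicate 2 the difference was 0.02. *Itgav* relative to *Itgb5* differed by 0.13 (exact permutation p = 0.8, adjusted p = 0.8) and by -0.05 without AclyM-KO replicate 2, *Gas6* relative to *Pros1* by 0.27 (exact permutation p = 0.2, adjusted p = 0.333) and *Stab1* relative to *Lrp1* by 0.46 (exact permutation p = 0.2, adjusted p = 0.333).

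Leaving out 1 library at a time separated these genes into those with a stable call and those without. *Mertk* stayed between -0.80 and -0.55, *Axl* between -0.69 and -0.55 and *Mfge8* between 0.36 and 0.48 on the log2 scale, past the threshold each time. The number of lower genes was 2 without control replicate 2, control replicate 3 or AclyM-KO replicate 3, since *Lrp1* and *Itgb5* were then no longer called. In these runs the number of lower genes among all tested also dropped, from 648 to 282, 244 and 424. Without AclyM-KO replicate 2, 6 genes were lower and 2 higher, with *Itgav*, *Pros1* and *Gas6* added, while 18.5% of 11554 genes tested passed the threshold. The number of higher genes was also 2 without AclyM-KO replicate 1, with *Elmo1* added to *Mfge8*, while that over all genes went from 768 to 872.

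**Figure D3:**
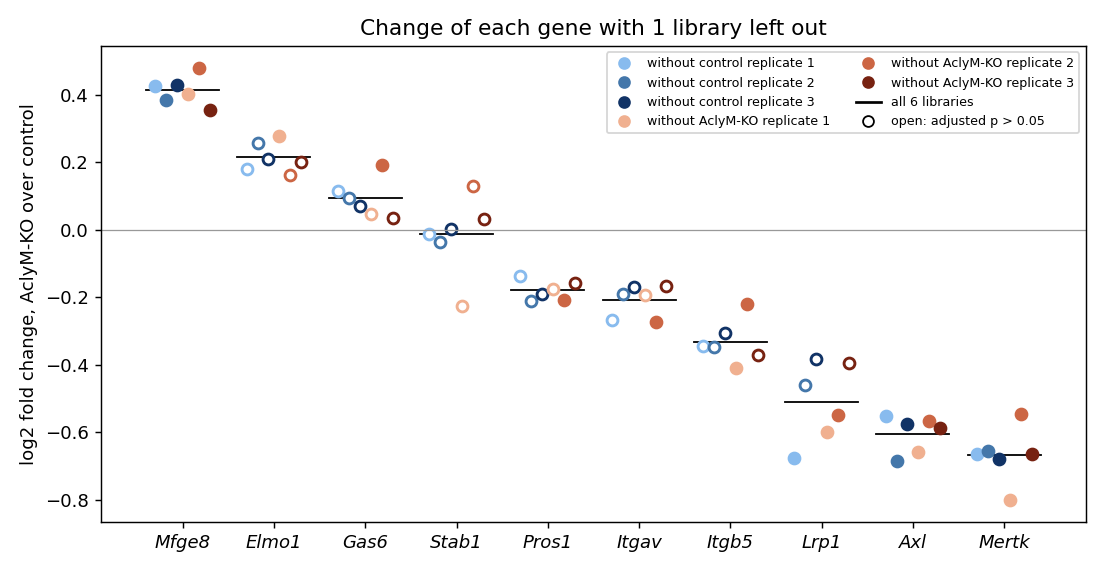
Log2 fold change of each gene (y axis) with 1 library left out, with a colour for each library left out, filled points for an adjusted p of 0.05 or less in edgeR, open points above it, and a black line for all 6 libraries. *Mertk*, *Axl* and *Mfge8* are filled in every case, *Stab1* lies on both sides of 0, and *Gas6*, *Pros1* and *Itgav* are filled only without AclyM-KO replicate 2.

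*Mertk* had the largest fall of the receptors with all 6 libraries. Without AclyM-KO replicate 2, the log2 fold changes were -0.566 for *Axl*, -0.55 for *Lrp1* and -0.546 for *Mertk*. The sequences upstream of *Mertk* and of *Mfge8*, the member that rose, are shown to set their promoters side by side. Both are the 250 bases before the RefSeq start in GRCm38.p6, the assembly behind mm10, chr2:128698665-128698914 on the plus strand and chr7:79149061-79149310 on the minus strand, with capitals at GC boxes (GGGCGG on either strand), the motif of Sp/KLF factors.
Mertk: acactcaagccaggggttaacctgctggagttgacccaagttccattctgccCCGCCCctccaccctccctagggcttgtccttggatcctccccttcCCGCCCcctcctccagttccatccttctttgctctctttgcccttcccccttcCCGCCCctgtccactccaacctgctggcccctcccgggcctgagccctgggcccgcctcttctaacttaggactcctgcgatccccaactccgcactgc
Mfge8: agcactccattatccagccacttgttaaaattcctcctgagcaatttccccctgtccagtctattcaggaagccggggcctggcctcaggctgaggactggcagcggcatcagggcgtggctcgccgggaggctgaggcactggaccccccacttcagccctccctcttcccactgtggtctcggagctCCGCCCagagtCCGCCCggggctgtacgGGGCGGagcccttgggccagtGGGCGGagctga
The *Mertk* window had 3 GC boxes and a GC content of 63.6%, and the *Mfge8* window had 4 and 65.2%, against a median GC content of 52.4% over 32851 RefSeq promoter windows of this length. A GC box was found in 32.7% of these windows. Neither sequence held, on either strand, a nuclear receptor half-site (AGGTCA, in 14.0% of all windows), an AP-1 site (TGANTCA, 6.75%), a PU.1 core (GAGGAAG, 10.6%) or an E-box (CACGTG, 6.02%).

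A wider list of 92 other genes of apoptotic-cell uptake placed these results among the rest of the pathway. Of these, 83 were tested, 8 were higher, 14 lower and 61 did not pass the threshold, which makes 26.5% of those tested past it beside 12.3% of all genes. Its median log2 fold change was -0.03. Without AclyM-KO replicate 2, 12 were higher and 20 lower, beside 1105 and 1031 of all genes (18.5% in both directions together). The number lower was 8, 8 and 7 without control replicates 1, 2 and 3, while that over all genes went from 648 to 235, 282 and 244. *Timd4*, *Havcr1*, *Adgrb1*, *Ager*, *Olr1*, *Megf10*, *Apoh*, *Gulp1* and *Bcar1* were not tested because of low counts.

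**Figure D4:**
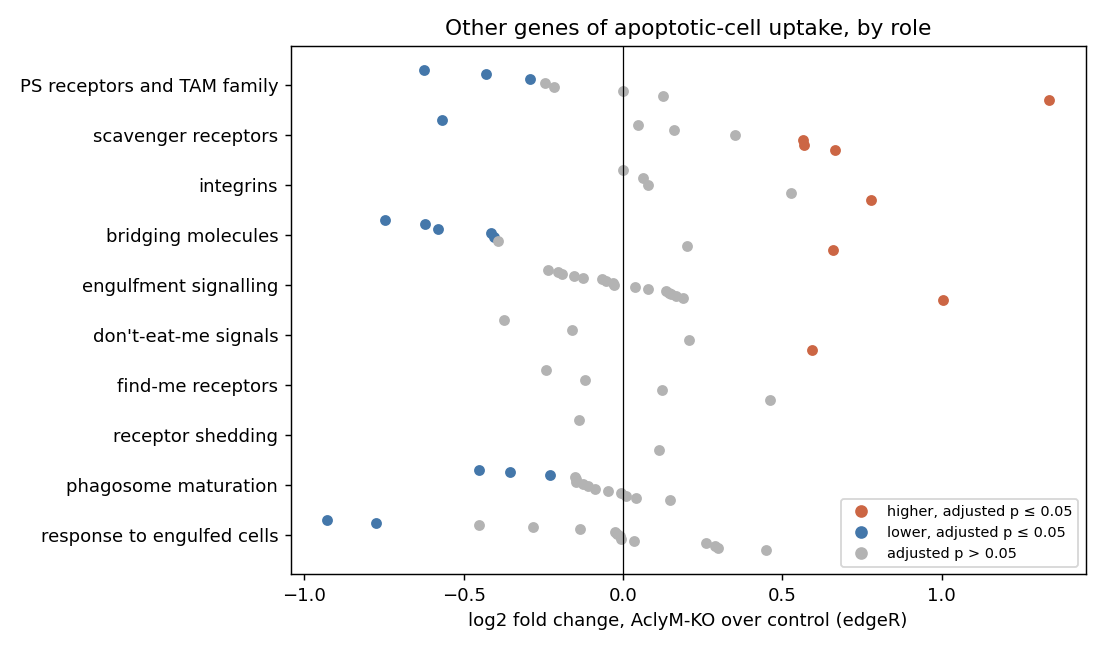
Log2 fold change in AclyM-KO over control macrophages (x axis) of the 83 tested genes of the wider list, 1 point per gene, grouped by role (y axis) and coloured by the edgeR call; PS is phosphatidylserine. Among the bridging molecules 5 points are blue and 1 orange, among the 17 engulfment signalling genes 1 is orange and 0 are blue, and in the scavenger receptors 3 are orange and 1 blue.

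Of 8 bridging molecules tested in the wider list, 5 were lower and 1 was higher, beside 5.65% and 6.7% of all genes, while *Gas6* and *Pros1* were not past the threshold. *C1qa*, *C1qb* and *C1qc* encode the chains of C1q, which opsonises dying cells. *C1qa* had 201.5, 213.6 and 213.2 CPM in the control and 131.4, 106.7 and 137.1 CPM in the AclyM-KO libraries, so that no library overlapped (log2 fold change -0.75, SE 0.0906, edgeR adjusted p = 0.00045). *C1qb* and *C1qc*, which were more abundant, fell by 0.41 and 0.41 on the log2 scale (edgeR adjusted p = 0.00826 and 0.0374), with the call of *C1qb* lost without control replicate 3 (adjusted p = 0.0510) and that of *C1qc* without control replicate 1, 2 or 3 (0.132, 0.0981 and 0.126). Without AclyM-KO replicate 2 the log2 fold change of *C1qc* was -0.26 (edgeR adjusted p = 0.000475). *Thbs1*, thrombospondin-1, which bridges dying cells to Cd36 and αv integrin, had 233.6 ± 6.54 CPM in control and 156.4 ± 24.8 CPM in AclyM-KO macrophages (log2 fold change -0.58, edgeR adjusted p = 0.00326). *Tgm2*, transglutaminase 2, a coreceptor of αvβ3 integrin in this process, had 287.6 ± 12.9 CPM in control and 187.0 ± 6.55 CPM in AclyM-KO macrophages (log2 fold change -0.62, edgeR adjusted p = 0.000161). *Anxa1*, annexin A1, which binds phosphatidylserine and dampens inflammation, was the member that rose, from 709.8 ± 42.6 to 1121 ± 285 CPM (log2 fold change 0.66, edgeR adjusted p = 0.0098), and its call was lost without control replicate 1 (adjusted p = 0.0568). AclyM-KO replicate 2 was the highest of its libraries with 1444 CPM, and without it the log2 fold change was 0.44 (edgeR adjusted p = 2.86e-05).

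Among phosphatidylserine receptors and related genes, 3 of 8 tested were lower and 1, *Tyro3*, was higher, beside 5.65% and 6.7% of all genes, and *Cd300a* alone of these 4 stayed past the threshold with each library left out in turn. *Cd300a*, an inhibitory receptor for phosphatidylserine, fell from 357.3 ± 18.7 to 232.0 ± 31.4 CPM (SD, n = 3; log2 fold change -0.63, edgeR adjusted p = 0.0017). *Tyrobp*, the adaptor DAP12 that signals for Trem2, fell by 0.29 on the log2 scale (edgeR adjusted p = 0.0186), a call lost without control replicate 1, 2 or 3 (0.0986, 0.0774 and 0.0802). *Stab2* was the other lower gene. Of 7 scavenger receptors tested, 3 were higher and 1 lower, beside 6.7% and 5.65% of all genes. *Cd36*, *Scarb1* and *Colec12* rose by 0.67, 0.57 and 0.56 on the log2 scale (edgeR adjusted p = 0.00489, 0.000942 and 0.00281), and *Cd36* was the most abundant of them with 1080 ± 61.1 CPM in control and 1713 ± 369 CPM in AclyM-KO macrophages. *Scarf1*, a receptor for C1q on dying cells, fell by 0.57 (edgeR adjusted p = 0.0357), a call lost without control replicate 1, 2 or 3 or AclyM-KO replicate 1 (0.169, 0.0901, 0.0573 and 0.0538). *Itgb3* was the one gene past the threshold among 5 integrin genes.

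Of 17 engulfment signalling genes tested, 1 (5.88%) was higher and 0 were lower, beside 12.3% of all genes past the threshold in either direction. The genes *Dock1* and *Rac1*, the partners of *Elmo1*, had log2 fold changes of -0.15 (edgeR adjusted p = 0.191) and 0.15 (adjusted p = 0.149). The gene that rose was *Ptk2*, focal adhesion kinase, which acts below αvβ5, with 7.55, 7.62 and 8.30 CPM in the control and 14.5, 18.0 and 14.1 CPM in the AclyM-KO libraries. Its level was low, but the groups were well separated (1.98-fold higher, SE 0.140 on the log2 scale, edgeR adjusted p = 0.00125). Of 4 genes for signals that restrain uptake, *Cd24a* was higher by 0.59 (edgeR adjusted p = 0.0220), a call lost without control replicate 1, 2 or 3 (0.0515, 0.104 and 0.0846), and *Sirpa* and *Cd47* had log2 fold changes of 0.21 (edgeR adjusted p = 0.058) and -0.16 (0.184). The 4 receptors for find-me signals, *P2ry2*, *S1pr1*, *Cx3cr1* and *Gpr132*, had log2 fold changes of 0.12, -0.12, 0.46 and -0.24 (edgeR adjusted p from 0.282 to 0.553).

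Of 14 genes of phagosome maturation, 3 were lower and 0 higher (21.4% past the threshold, beside 12.3% of all genes). *Cybb*, the catalytic subunit of the phagocyte NADPH oxidase, fell from 1171 ± 12.4 to 915.0 ± 41.7 CPM (SD, n = 3; log2 fold change -0.36, edgeR adjusted p = 0.00423). *Map1lc3a*, an LC3 protein, fell by 0.45 (edgeR adjusted p = 0.0322), a call lost without control replicate 1, 2 or 3 or AclyM-KO replicate 3 (0.103, 0.0670, 0.149 and 0.0847), and *Uvrag*, a partner of the lipid kinase Vps34, fell by 0.23 (edgeR adjusted p = 0.0470), which was not past the threshold in 13 of 17 alternatives. Of 14 genes known to respond to engulfed cells, 2 (14.3%, near the 12.3% of all genes past the threshold) were lower, the cholesterol exporters *Abca1* (log2 fold change -0.93) and *Abcg1* (-0.78). The nuclear receptor genes *Nr1h3* and *Pparg*, whose products are known to induce *Mertk* and bridging molecules after uptake, had log2 fold changes of -0.28 (edgeR adjusted p = 0.250) and 0.03 (adjusted p = 0.824). For *Nr1h2*, *Ppard* and *Rxra*, nuclear receptor genes of the same list, they were -0.03, -0.13 and -0.45 (edgeR adjusted p = 0.922, 0.696 and 0.0819).

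Some markers of macrophages moved with the groups beside these genes. The summed level of 8 macrophage markers was 23700 to 24500 CPM in control and 15100 to 17600 CPM in AclyM-KO libraries. *Lyz2* carried most of this gap, and the other 7 markers summed to 10700 to 10800 CPM in control and 9510 to 10600 CPM in AclyM-KO libraries. Of the 8, 3 were lower and 0 higher, among them *Lyz2* by 1.05 on the log2 scale, at whose locus Cre is inserted in AclyM-KO mice, and *Csf1r* by 0.48 (edgeR adjusted p = 0.0391). *Adgre1*, *Cd68* and *Itgam* had log2 fold changes of 0.07, 0.01 and 0.00. All 7 fibroblast markers had at most 5 counts in every library, as did 3 of 8 neutrophil, 4 of 7 dendritic cell, 4 of 5 B cell, 4 of 5 T cell, 2 of 5 endothelial, 3 of 5 mast cell and basophil and 3 of 5 osteoclast markers. *Ctsk*, an osteoclast protease, and *Kit* of mast cells rose by 1.47 and 1.07 on the log2 scale, with summed levels of their lists of 7.32 to 8.21 against 14.2 to 18.1 CPM and 9.49 to 10.5 against 18.8 to 24.0 CPM. The other osteoclast marker tested, *Acp5*, had a log2 fold change of -0.66 (edgeR adjusted p = 0.232). *Kit* carried nearly all of the mast cell and basophil sum. The highest counts of *Cpa3*, *Mcpt4*, *Mcpt8* and *Fcer1a* in any library were 6, 0, 1 and 0. The monocyte markers summed to 12.7 to 15.7 CPM in control and 13.1 to 14.6 CPM in AclyM-KO libraries. *Cd4*, on a T cell list that summed to 57.9 to 66.2 and 34.5 to 50.9 CPM, fell by 0.55, while *Cd3e* was at 0 in every library. The part of these differences in the results for efferocytosis genes was not tested.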

How the data were processed

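RNA of unstimulated BMDMs was measured in 3 control and 3 AclyM-KO libraries, grouped by their sample labels. The authors prepared strand-specific mRNA libraries, demultiplexed with CASAVA 1.8.2, aligned to mm10 with STAR 2.5.2b and deposited raw read counts per RefSeq transcript (HOMER2), not normalized and not pooled. Counting used default settings, and the RefSeq release was not given in the sources used here. Of 12 value columns, 6 matched no sample and were not used. Reads on exons shared by transcripts can be counted in each, so the transcript with the highest total represented each of 24562 symbols. Of 35745 transcripts, 117 without a symbol kept their accession.

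The genotypes were tested with edgeR 4.0.16 in R 4.3.3, using TMM normalization, the filterByExpr filter and a quasi-likelihood fit with genotype alone, Benjamini-Hochberg adjustment over 11470 genes and a threshold of 0.05. CPM use TMM-scaled library sizes, and RPKM use transcript length and the total over all transcripts. The biological coefficient of variation, as edgeR terms it, was 8.9% and here holds the spread between these libraries only. Pairs of genes were compared by exact permutation tests. Scripts were tested on simulated data. Alternatives were DESeq2 1.42.0, limma-voom (limma 3.58.1) with sample weights, other scalings, filters and transcript choices, the replicate number as a block, thinning of AclyM-KO replicate 2 and each library left out. The 10 genes, the wider list, the markers and the tests were chosen with earlier results of these data known. All 10 genes and every gene of the wider list past the threshold are named. Promoter windows came from RefSeq, and exon overlaps from GENCODE. Stimulated macrophages were not analysed here, and results that need certain withheld genes are not reported here.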

Additional observations from a re-analysis of the deposited data

How the results depend on the processing

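*Mertk*, *Axl* and *Mfge8* kept their direction and call under 17 alternatives, 16 planned and 1, a correction for transcript length, chosen after seeing the data. Total counts only gave *Stab1* 0.0196 and *Lrp1* -0.476 (edgeR adjusted p = 0.0533), and summing the transcripts of a gene gave *Lrp1* -0.511 (adjusted p = 0.0526). With limma-voom, 2 members were higher and 6 lower, *Itgav* was at -0.262, *Gas6* at 0.171 and *Pros1* at -0.201, all past the threshold, *Stab1* was at 0.0383, 14 genes of the wider list were higher and 19 lower, and of all genes 1110 were higher and 1077 lower. The length correction gave *Stab1* 0.0591. The log2 fold change of *Stab1* was 0.00368 without control replicate 3, 0.13 without AclyM-KO replicate 2 and 0.0307 without AclyM-KO replicate 3. The cause of these shifts was not tested.

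With each library left out in turn, members higher ranged from 1 to 2 and lower from 2 to 6, genes of the wider list higher from 6 to 12 and lower from 7 to 20, and all genes higher from 363 to 1105 and lower from 235 to 1031. Log2 fold changes ranged from -0.226 to 0.13 in *Stab1*, -0.675 to -0.382 in *Lrp1*, -0.274 to -0.167 in *Itgav*, -0.411 to -0.22 in *Itgb5*, 0.0354 to 0.193 in *Gas6*, -0.212 to -0.137 in *Pros1* and 0.163 to 0.277 in *Elmo1*.

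Pairing of samples by the shared replicate numbers was not shown. Same-numbered libraries correlated by 0.0887, 0.111 and -0.0449 in their deviations from the group means, and differently numbered ones by -0.13 to 0.0656. With 3 libraries per group, these deviations are too few to decide whether samples were paired. With the replicate block, 1 member was higher and 4 lower, *Mertk* was at -0.679, and 862 of all genes were higher and 721 lower. Of the differences in members, 148 of 170 kept both direction and call. The members had at least 473 counts in every library, whereas *Tyro3* had at most 57.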
